A study of Mus musculus with 2 samples.

Results

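The 9 genes considered here build the actin cytoskeleton of mouse keratinocytes (KCs) and its anchorage at focal adhesions and at the cell membrane: *Actb*, *Actg1*, *Myh9*, *Vcl*, *Tln1*, *Actn1*, *Actn4*, *Ezr* and *Zyx*. H3K36me3, trimethylation of histone H3 at lysine 36, had been mapped by ChIP-seq, in which DNA bound to the modified histone is pulled down with an antibody and sequenced. The material was primary KCs from the skin of C57BL/6 mice of the genotype *Setd2fl/fl* at 10 weeks of age, the floxed control animals, whose *Setd2* is intact. 1 H3K36me3 ChIP library was available as a peak list, no file of the input library was used, and no other genotype was compared. There were no replicates, so no value below has a replicate error and no difference was tested between samples; the depth of the library is unknown. A peak belonged to the genes if the deposited annotation named one of them or if at least 1 bp of it lay on a gene body, the span between the annotated transcription start site (TSS) and transcription end site (TES) on GRCm38. This gave 45 of 45575 peaks, for 9 of 21938 protein-coding genes. 44 of the 45 peaks lay on the gene bodies, although the annotation gave 12 of these to another gene, and 1 peak was given to *Actn1* from beyond its end.

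The peak list was checked against markers of KCs and of other skin cells. All 7 markers of basal KCs, among them *Krt5* and *Krt14*, had a peak, as had 51.4% of all protein-coding genes. The median share of their gene bodies inside peaks was 89.9%. Peaks on *Col17a1* and *Itgb4*, also among the 7, lay on a neighbour as well, *Slk* and *Galk1*. Of the 4 suprabasal markers *Krt1* and *Krt10* had peaks. *Lor* and *Ivl* had none on the body, although the annotation assigned *Ivl* a peak outside it. No peak lay on any of 6 fibroblast or 5 skeletal muscle markers. Peaks touched 2 of 6 smooth muscle and pericyte markers (*Tagln* over 35.9% and *Cnn1* over 2.56% of the body, each by a peak that also lay on a neighbour, *Pcsk7* and *Elof1*), 1 of 4 endothelial markers (*Pecam1*, 0.275%), 1 of 5 immune markers (*Cd74*, 7.18%, by a peak also on *Tcof1*) and 1 of 5 melanocyte markers (*Pmel*, 15.3%, by a peak also on *Dgka*).

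SETD2 is the enzyme that trimethylates H3K36. It travels with elongating RNA polymerase II, so the mark is laid down along the bodies of transcribed genes and is usually weak at their promoters. Actin filaments, assembled from the β-actin and γ-actin that non-muscle cells make, give KCs their shape and the force to migrate: non-muscle myosin pulls on the filaments, α-actinins bundle them, talin, vinculin and zyxin tie them to integrins at focal adhesions, and ezrin ties them to the cell membrane. Several of these genes are known targets of the serum response factor SRF, which binds a short element called the CArG box.

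The promoters of the genes lay outside the peaks, and some of their sequences are shown as the part that the mark left out. RefSeq sequences of the 300 bases around the start (250 before it and 50 after it, GRCm38.p6) were at hand for 8 of the 9 genes, *Actb* being the other. None of the 8 windows touched a peak, and neither did most others: 258 of 20150 windows of protein-coding genes (1.28%) did. A CArG box, searched by its consensus, which reads alike on both strands, was found in 2 of the 8 windows, those of *Actg1* and *Vcl*, and in 535 of the 32851 windows of the table (1.63%); a match is a stretch of letters and not a shown binding site. The windows of *Actg1* and *Vcl* are printed with that element in capitals. The window of *Actn1*, the one farthest from a peak on its own gene, is printed beside them and holds no match.
Actg1 (chr11:120348446-120348745, minus strand, CArG box from position −90, counted from the RefSeq start): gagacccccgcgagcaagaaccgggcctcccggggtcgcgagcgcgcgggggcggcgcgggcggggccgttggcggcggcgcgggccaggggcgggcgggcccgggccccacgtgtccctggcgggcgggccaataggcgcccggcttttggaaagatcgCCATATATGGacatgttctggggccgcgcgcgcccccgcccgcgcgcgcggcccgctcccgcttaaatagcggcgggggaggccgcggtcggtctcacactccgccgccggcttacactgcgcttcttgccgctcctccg
Vcl (chr14:20929148-20929447, plus strand, CArG box from position −227): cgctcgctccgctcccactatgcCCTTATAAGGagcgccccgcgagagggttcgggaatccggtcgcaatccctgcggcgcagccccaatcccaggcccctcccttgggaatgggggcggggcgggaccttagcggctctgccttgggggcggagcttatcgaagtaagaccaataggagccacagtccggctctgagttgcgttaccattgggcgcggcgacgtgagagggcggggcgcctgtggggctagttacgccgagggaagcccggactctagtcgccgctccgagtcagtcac
Actn1 (chr12:80260314-80260613, minus strand, no CArG box): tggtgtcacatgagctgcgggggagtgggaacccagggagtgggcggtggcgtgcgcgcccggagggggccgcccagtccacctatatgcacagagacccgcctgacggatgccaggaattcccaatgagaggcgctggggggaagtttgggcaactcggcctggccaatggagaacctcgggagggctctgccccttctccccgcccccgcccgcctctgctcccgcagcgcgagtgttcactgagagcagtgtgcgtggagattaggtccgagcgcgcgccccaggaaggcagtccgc
The window of *Actg1* ended 71 bp before the peak on its gene and that of *Vcl* 2104 bp before it, while 11953 bp separated the window of *Actn1* from the nearest peak on its gene. For the other windows the distance to the nearest peak on the gene itself was 1277 bp at *Myh9*, 1078 bp at *Ezr*, 1629 bp at *Zyx*, 4380 bp at *Tln1* and 4978 bp at *Actn4*; at *Tln1* a peak off its body lay nearer, at 801 bp.

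H3K36me3 covered all 9 genes, and most of them over more of their length than was usual. Each had a peak on its body, as had 51.4% of all protein-coding genes, and each was named by the annotation as the gene of a peak, as were 45.4%. At least 50% of the body lay inside peaks in 7 of the 9 genes (all but *Vcl* and *Actn1*), against 23.8% of protein-coding genes. The median covered share was 75.7% over the 9 genes (range 39.4 to 94.1%), against 46.4% over the 11268 protein-coding genes with a peak and 1.07% over all 21938. Summed over the genes, 266201 of 440780 bp (60.4%) lay inside peaks, against 16.6% of the summed bodies of protein-coding genes. In cells studied as a bulk, a mark carried by fewer cells and a weaker mark in each cell cannot be told apart.

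**Figure D1:**
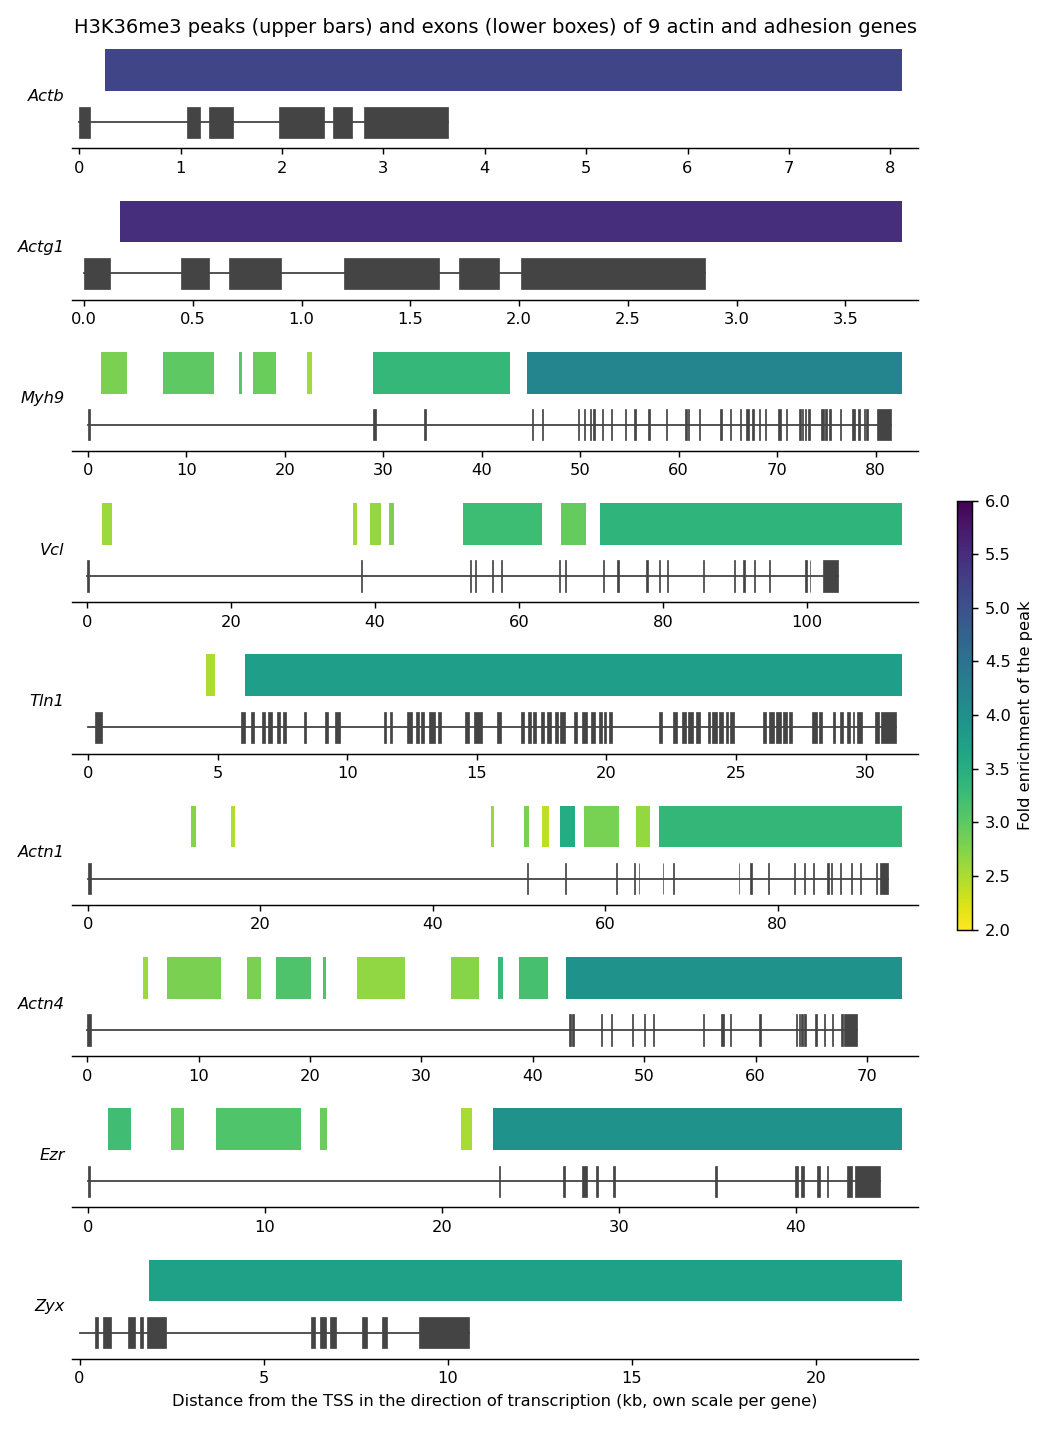
H3K36me3 peaks on the 9 genes, drawn from the TSS in the direction of transcription (x axis, kb, with its own scale for each gene). Upper bars are peaks, coloured by fold enrichment, and lower boxes are exons of the longest protein-coding transcript; a wide peak runs over the end of every gene, while intron 1 of *Myh9*, *Vcl*, *Actn1*, *Actn4* and *Ezr* holds narrow peaks with gaps between them.

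The 2 actin genes had the highest peaks and the largest covered shares. *Actb* encodes β-actin and lies at chr5:142903115-142906754 on the minus strand. Its 3640 bp carried 1 peak of 7865 bp, which began 251 bp after the TSS, covered 93.1% of the body and ran 4476 bp past the TES. Its fold enrichment, by which the authors' peak caller sets the ChIP signal over the local background it expects, was 5.18, and its −log10 P was 10.6. *Actg1*, which encodes γ-actin, lies at chr11:120345690-120348542 on the minus strand and spans 2853 bp. Its 1 peak of 3595 bp began 167 bp after the TSS, covered 94.1% of the body and ran 909 bp past the TES, with a fold enrichment of 5.47 and a −log10 P of 12.0. Both peaks stood near the top of the list: 99.97% of all 45575 peaks had a lower fold enrichment than that of *Actb*, and 99.98% a lower one than that of *Actg1*. The median over all peaks was 2.90 and the highest value 6.97.

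The proteins of the actin pair differ at 4 of 375 residues, and their coding sequences are identical at 88.6% of positions. In the library, reads of 75 nt were taken, so the origin of a read from a stretch that recurs exactly elsewhere in the genome cannot be told from its sequence. Of the 75-base stretches of *Actb*, 0.729% recurred elsewhere, at 4 other places, of which 1, on *Lrrc58*, held a peak. Of those of *Actg1*, 51.9% recurred, at 10 other places, and none of these stretches lay in the part of the gene outside the peak. The place that shared most with *Actg1* was the processed pseudogene *Gm12715* on chromosome 4, with 1318 shared stretches, followed by *Gm8399* on chromosome 13 with 840 and *Actg-ps1* on chromosome 8 with 308. No peak lay on any of the 10 places, so the peak at the gene had no counterpart at its copies; how such reads were treated during alignment is not stated in the labels or the methods. *Actb* was not among the 10 places, so the comparison of the actin pair does not bear on these recurring stretches. The start of the *Actg1* coding sequence lies inside the peak (chr11:120348017-120348091, minus strand, 75 bases from the start codon). It is printed as 1 stretch in which the actin pair differs: capitals mark the 12 bases at which *Actb* carries another base.
Actg1 coding start: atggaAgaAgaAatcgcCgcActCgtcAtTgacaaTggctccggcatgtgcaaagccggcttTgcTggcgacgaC
Over the whole coding sequence of 1125 bases the actin pair differed at 128.

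*Myh9* encodes the heavy chain of non-muscle myosin IIA, the motor that contracts actin bundles. It lies at chr15:77760587-77842175 on the minus strand, and its 81589 bp carried 7 peaks over 75.7% of the body. The widest peak, of 38055 bp, began 44652 bp after the TSS and ran 1118 bp past the TES, with a fold enrichment of 4.17 and a −log10 P of 7.30. The 5 peaks nearest the TSS all lay in intron 1, between 1326 and 22739 bp from the start, and had fold enrichments of 2.55 to 3.04. The deposited annotation gave 2 of these 5 to *Gm22107*, an snRNA gene nested in intron 1.

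The α-actinins crosslink actin filaments into bundles, and the 2 genes that non-muscle cells use, *Actn1* and *Actn4*, differed in how much of intron 1 was marked. *Actn1* (chr12:80167547-80260371, minus strand, 92825 bp) had the smallest covered share of the 9 genes, 39.4%, spread over 9 peaks. Its nearest peak to the TSS began 12010 bp into the gene, and only 3 narrow peaks and part of a further one lay in its intron 1. The peak at its 3′ end was 28235 bp wide, began 66210 bp from the TSS and had a fold enrichment of 3.35. *Actn1* was the exception in that its highest fold enrichment, 3.53, belonged to another peak, one of 1709 bp that began 54790 bp from the TSS. *Actn4* (chr7:28893248-28962340, minus strand, 69093 bp) was covered over 66.9% by 10 peaks, the most of any of the 9 genes. Its widest peak, of 30150 bp, began 42995 bp from the TSS, close to the end of intron 1, and had a fold enrichment of 3.97. The annotation gave 6 of the 9 peaks on *Actn1* to *Gm47767* or *Gm47765*, non-coding genes inside its body. On *Actn4*, 3 of the 10 went to *Gm44699*, a non-coding gene inside intron 1, and the widest to the neighbour *Capn12*; a count by the annotated gene alone would leave *Actn4* without that peak. The 1 peak assigned to *Actn1* from outside its body was 1172 bp wide, lay 2704 bp past the TES and had a fold enrichment of 2.85.

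Among the focal adhesion genes, *Tln1* and *Zyx* were covered over most of their length and *Vcl* over 49.5%. *Tln1* encodes talin 1, which binds integrin tails and activates the receptors. It lies at chr4:43531519-43562691 on the minus strand, and 81.7% of its 31173 bp lay in 2 peaks: 1 of 377 bp that began 4537 bp from the TSS (fold enrichment 2.51) and 1 of 25332 bp that began at 6077 bp (fold enrichment 3.78) and ended 236 bp past the TES. *Vcl* encodes vinculin, which is recruited to talin under tension and strengthens the link to actin. It is the longest of the genes (chr14:20929398-21033676, plus strand, 104279 bp), and its 7 peaks had the lowest maximum, with a fold enrichment of 3.39 and a −log10 P of 5.07. The widest *Vcl* peak, of 41904 bp, was also the widest on any of the 9 genes; it began 71322 bp from the TSS and ran 8947 bp past the TES, over the 3′ end of the neighbour *Ap3m1*. Between 3573 and 36961 bp from the TSS *Vcl* had no peak. Inside peaks, 23.9% of the *Vcl* body was masked as repeats in the RefSeq genome and 0.642% of 75-base stretches recurred exactly elsewhere, against 38.4% and 4.56% outside them. The masked share was also higher outside peaks in *Myh9*, *Actn1*, *Ezr* and *Zyx*, and lower outside them in *Actb*, *Actg1*, *Tln1* and *Actn4*. In *Actn1*, the gene with the smallest covered share, it was 19.3% inside peaks and 19.8% outside. The part of masked and recurring stretches in the gaps was not tested.

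*Zyx* encodes zyxin, a LIM protein that arrives at adhesions and stress fibres under tension. It lies at chr6:42349630-42360213 on the plus strand, and 1 peak of 20471 bp covered 82.3% of its 10584 bp. That peak began 1876 bp from the TSS, had a fold enrichment of 3.71, and ran 11763 bp past the TES through most of *Epha1*, the convergent neighbour, which was covered over 91.3%. Since 1 peak spanned both genes, its height cannot be divided between them. Outside the 1727 bp that *Zyx* shares with *Epha1* its covered share was 78.8%.

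*Ezr* encodes ezrin, the ERM protein that links cortical actin to the cell membrane. It lies at chr17:6738041-6782784 on the minus strand, and its 44744 bp carried 6 peaks over 66.7%. The widest *Ezr* peak, of 23096 bp, began 22895 bp from the TSS, just before the end of intron 1, and covered everything from exon 2 to the TES with a fold enrichment of 3.95 and a −log10 P of 6.78. The other 5 peaks lay in intron 1, the nearest of them 1131 bp from the TSS with a fold enrichment of 3.22.

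Longer genes of the 9 had smaller covered shares. Across the 9 genes the rank correlation of length with covered share was −0.92, and that of intron 1 length with covered share −0.87, against −0.27 for length over the 11268 protein-coding genes with a peak; genes are not replicates and share this 1 library, so these are descriptions only. Each gene was therefore also set beside the protein-coding genes with a peak that were between 50% and 2 times as long. The share of these that were covered less was 97.8% for *Actb*, 96.7% for *Actg1*, 88.3% for *Myh9*, 58.0% for *Actn1*, 78.3% for *Actn4*, 71.3% for *Vcl*, 85.0% for *Tln1*, 88.0% for *Zyx* and 70.3% for *Ezr*. All 9 thus lay above the middle of genes of like length, *Actn1* by the least. The highest fold enrichment of a gene and its covered share had a rank correlation of 0.72 over the 9 genes and 0.47 over all genes with a peak. Both measures rest on the same peaks.

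**Figure D2:**
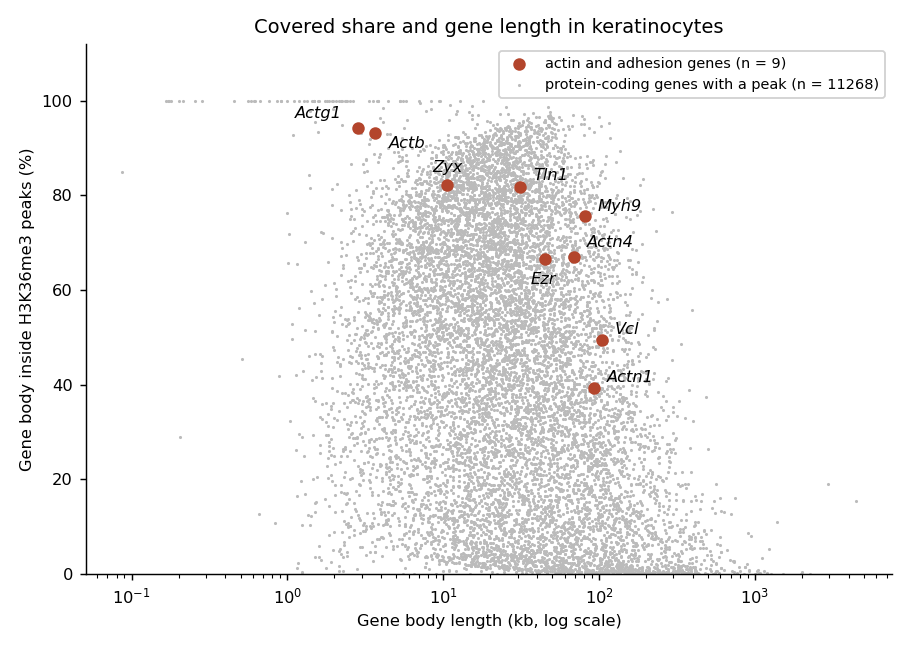
Share of the gene body inside H3K36me3 peaks (y axis, %) against gene body length (x axis, kb, log scale) in the 1 library. Large points are the 9 genes and small grey points the 11268 protein-coding genes with a peak; *Actg1* with 2853 bp and *Actb* with 3640 bp lie at 94.1 and 93.1%, and *Actn1* and *Vcl*, the 2 longest, at 39.4 and 49.5%.

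Most of what the mark left uncovered was intron 1. Intron 1 of the longest protein-coding transcript was 10000 bp or longer in 5 genes, *Myh9*, *Vcl*, *Actn1*, *Actn4* and *Ezr*. In all 5 a smaller share of intron 1 than of the transcript from exon 2 onwards lay inside peaks, which was usual, since 95.6% of the 2936 protein-coding genes with a peak and such an intron had the same order. The medians lay higher in the 5 genes on both sides: 36.01% of intron 1 against 2.75% over the 2936 genes, and 96.5% after intron 1 against 51.8%. The 5 genes also differed among themselves. Intron 1 was covered over 47.5% in *Actn4* (42950 bp), 38.0% in *Myh9* (28725 bp) and 36.01% in *Ezr* (23069 bp), and over 5.26% in *Vcl* (37849 bp) and 3.25% in *Actn1* (50513 bp). From exon 2 onwards the covered share was 100% in *Actn4* and *Ezr*, 96.5% in *Myh9*, 83.3% in *Actn1* and 75.01% in *Vcl*. Between 68.1 and 99.0% of the uncovered bases of these 5 transcripts lay in intron 1, the lowest share being that of *Vcl* and the highest that of *Ezr*.

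Shorter first introns did not give 1 pattern. *Tln1* resembled the long genes, with 7.05% of its intron 1 of 5346 bp covered against 99.3% of the rest. In *Actb* and *Actg1*, whose intron 1 is 959 and 327 bp long, 84.6 and 85.0% of it lay inside the peak and all of the rest did. The intron 1 of *Zyx*, at 137 bp, lay wholly before the peak. None of the 9 was fully covered over intron 1, whereas 165 of their 179 later introns (92.2%) were, and only 3 later introns, introns 2 to 4 of *Zyx*, held no peak. For other genes with a peak these shares are not given. The later introns covered in part belonged to *Vcl* (4 introns), *Actn1* (5), *Myh9* (1) and *Tln1* (1); intron 2 of *Vcl*, of 14965 bp, was covered over 21.0%, and intron 4 of *Actn1*, of 1967 bp, over 8.59%.

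**Figure D3:**
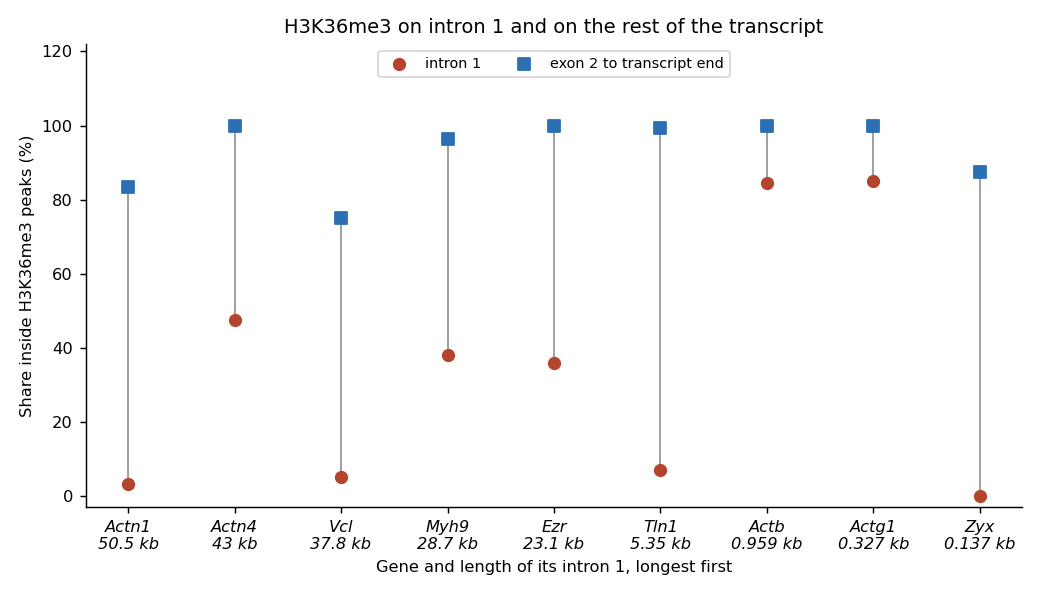
Share inside H3K36me3 peaks (y axis, %) of intron 1 (circles) and of the transcript from exon 2 to its end (squares) in each of the 9 genes, ordered by the length of intron 1 printed under the name. Squares lie between 75.01 and 100%, and circles between 0% in *Zyx* and 85.0% in *Actg1*.

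The peaks within intron 1 were also narrower and lower than the rest. At 26 of the 44 peaks on the gene bodies at least 50% of the peak lay in intron 1; these had a median width of 691 bp (311 to 5164 bp) and a median fold enrichment of 2.80 (2.47 to 3.29). The other 18 had a median width of 9415.5 bp and a median fold enrichment of 3.37 (2.40 to 5.47). Over all 45 peaks of the 9 genes the median width was 1709 bp and the median fold enrichment 2.92, against 1614 bp and 2.90 over the whole list. The middle of the range was thus close to that of the whole list, and the difference lay among the widest peaks: 9 of the 45 peaks (20%) were wider than 10000 bp, against 10.1% of all peaks. The median highest fold enrichment of a gene was 3.95 over the 9 genes, against 3.36 over the 11268 genes with a peak, and the median widest peak 25332 bp, against 7581 bp. Every one of the 9 had a peak with a −log10 P of at least 5, as had 24.6% of protein-coding genes.

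The peaks crossed the 3′ end of all 9 genes and, counted by bases, leaned towards it, as they did in most genes with a peak. The TES lay inside a peak in 9 of 9 genes, against 60.7% of genes with a peak. In each of the 9 the peak over the TES was the widest of the gene, in 3 of them as the only peak. For this order no share over all genes is given. The TSS lay inside a peak in 0 of 9, against 2.04%. More peak bases lay downstream than upstream of the middle of the body in 9 of 9, against 86.3%, and the downstream share of peak bases was 97.3% in *Actn1* and 91.9% in *Vcl*, but 53.7% in *Actb* and 53.1% in *Actg1*, in which the peak filled both sides. In 5 of the 6 genes with 2 or more peaks the peak nearest the 3′ end was also the highest in fold enrichment, against 44.3% of such genes, the exception being *Actn1*. Counted by the midpoints of peaks in place of bases, 4 of the 9 genes leaned downstream, as the many narrow peaks of intron 1 then count as much as the wide peak at the end.

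Past the TES the peaks ran between 236 bp (*Tln1*) and 11763 bp (*Zyx*), with a median of 1620 bp over the 9 genes, against 1568.5 bp over the 6844 genes with a peak over the TES. The 2 longest runs, of *Zyx* and *Vcl*, crossed into a convergent neighbour, so their length cannot be assigned to 1 gene. *Actb*, at 4476 bp, and *Actn4*, at 4052 bp, came next; the peak of *Actn4* also overlapped *Capn12*.

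**Figure D4:**
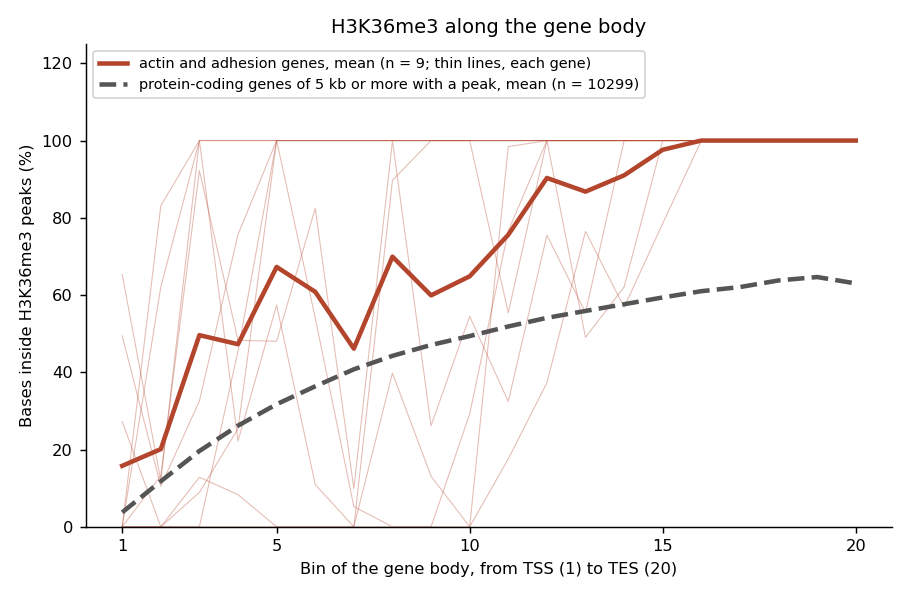
Mean share of bases inside H3K36me3 peaks (y axis, %) in 20 equal bins of the gene body from TSS to TES (x axis), for the 9 genes (solid line, thin lines for each gene) and for 10299 protein-coding genes of 5000 bp or more with a peak (dashed line). The mean of the 9 genes is 15.8% in bin 1, 64.9% in bin 10 and 100% from bin 16 onwards, and the mean of the others 3.73, 49.4 and 63.0% in bins 1, 10 and 20. The 9 genes include *Actb* and *Actg1*, which are shorter than 5000 bp and lie at 100% from bin 3 onwards. They raise the mean of the 9 genes, and no genes of their length enter the dashed line.

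Exons were covered over a larger share than introns in 7 of the 9 genes, against 73.2% of genes with a peak. The gap was widest in *Actn1*, with 87.6% of exonic and 37.3% of intronic bases inside peaks, and in *Vcl*, with 91.6 and 47.2%. The exceptions were *Actg1* (92.7% of exonic and 100% of intronic bases) and *Zyx* (74.1 and 87.7%), whose uncovered bases lie at the 5′ end, where the exons of all transcripts were counted together. The median over the 9 genes was 92.7% for exons and 73.6% for introns, against 66.3 and 41.8% over the 11062 genes with both. In the 5 genes with a long intron 1 the same uncovered bases enter this comparison and that of intron 1.

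Leaving out the bases shared with overlapping neighbours changed the covered shares little. This does not show what a neighbour adds where a single peak runs through both genes, as at *Zyx* and *Epha1*. Besides *Zyx* with *Epha1*, the bodies of *Vcl* and *Ap3m1* share 2235 bp, those of *Tln1* and *Creb3* 360 bp, those of *Actn4* and *Capn12* 316 bp and those of *Ezr* and *Sytl3* 4 bp. Without the shared bases the covered share was 48.4% for *Vcl*, 82.7% for *Tln1*, 66.8% for *Actn4* and 66.7% for *Ezr*. The 360 bp of *Tln1* shared with *Creb3* are at its 5′ end and held no peak.

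Within the families of these genes the peaks were unevenly spread. Of 29 paralogs 13 had a peak (44.8%), against 51.4% of all protein-coding genes, and the median covered share was 0%. None of the other actin genes had a peak: not the skeletal and cardiac muscle actins *Acta1* and *Actc1*, the smooth muscle actins *Acta2* and *Actg2*, nor *Actbl2*. Of 10 other class II myosins *Myh14*, the heavy chain of non-muscle myosin IIC, was covered over 78.2% by 5 peaks, and *Myh10*, that of non-muscle myosin IIB, over 4.95% by 3. The muscle myosins *Myh1*, *Myh2*, *Myh3*, *Myh4*, *Myh6*, *Myh7*, *Myh8* and *Myh11* had none on the body, although the annotation assigned *Myh11* a peak outside it. *Actn2*, the α-actinin of cardiac and skeletal Z discs, had no peak, and *Actn3* had 1 over 4.73% of its body that also lay on its neighbour *Ctsf*.

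Of the paralogs of *Tln1*, *Ezr*, *Zyx* and *Vcl*, 10 of 12 had a peak, against 51.4% of all protein-coding genes and 13 of all 29 paralogs. *Tln2*, which encodes talin 2, had 16 peaks over 4.50% of 342617 bp, against 81.7% for *Tln1*. The ERM genes *Rdx* (radixin, 59.5%) and *Msn* (moesin, 18.8%) stood beside *Ezr* at 66.7%. All 5 relatives of *Zyx* had peaks: *Ajuba* over 90.7%, *Limd1* over 48.2%, *Wtip* over 47.6%, *Trip6* over 41.8% and *Lpp* over 7.74% of 599072 bp. Of the vinculin relatives, *Ctnna1*, which encodes the α-catenin of adherens junctions, was covered over 38.1% and *Ctnnal1* over 40.6%, whereas *Ctnna2* and *Ctnna3* had no peak.

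**Figure D5:**
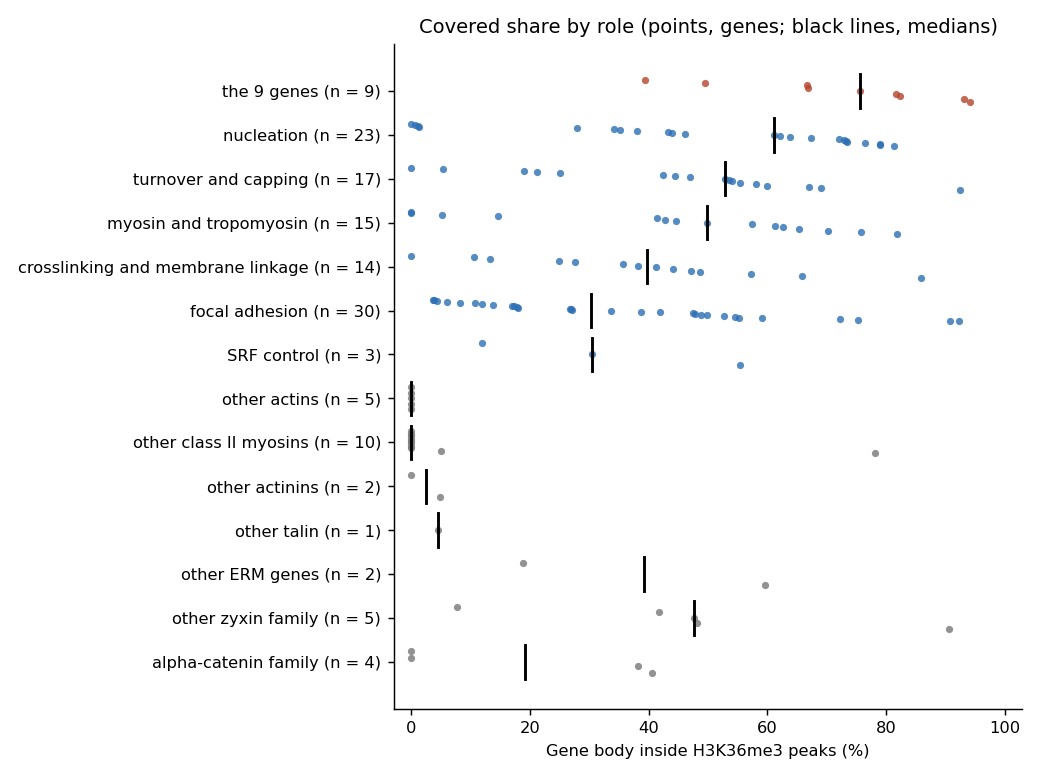
Share of the gene body inside H3K36me3 peaks (x axis, %) for the 9 genes, for further actin and adhesion genes by role and for 29 paralogs by family (y axis). Points are genes and black lines medians; the 9 genes have a median of 75.7%, the roles shown medians of 30.3 to 61.1%, and all other actins and 8 of 10 other class II myosins lie at 0%.

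Most genes on a list of the wider machinery had a peak as well. The list was chosen with earlier results of these data known, so its counts are descriptions only. Of 116 further genes of actin assembly, contraction, adhesion and their control, 109 (94.0%) had a peak, against 51.4% of protein-coding genes. At least 50% of the body was covered in 48 of the 116, against 23.8%. Their median covered share was 46.6%, against 1.07% over all protein-coding genes. Over the protein-coding genes with a peak the median was 46.4%, close to that of the list. Of 23 genes of filament nucleation 22 had a peak, with the largest shares in *Cttn* (cortactin, 81.3%), the Arp2/3 complex genes *Arpc4* (79.0%, by a peak also on *Ttll3*), *Actr2* (79.0%) and *Arpc1a* (76.4%); *Wasf1* had none. Of 17 genes of filament turnover and capping 16 had a peak, led by *Wdr1* (92.5%), *Twf1* (69.1%, or 58.6% outside *Irak4*, on which its peak also lay), *Pfn1* (profilin 1, 67.0%, by a peak also on *Rnf167*) and *Capza1* (60.0%), and *Tmsb10* had none. Of 15 myosin and tropomyosin genes 13 had a peak, led by the tropomyosins *Tpm4* (81.8%) and *Tpm1* (75.7%), *Myo1c* (70.3%) and *Tpm2* (65.3%). *Myl9* and *Mylk*, a myosin light chain and a myosin light chain kinase, had none on the body, although the annotation assigned *Mylk* a peak outside it.

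Of 14 genes of crosslinking and membrane linkage 13 had a peak, among them *Sptan1* (αII-spectrin, 85.9%, with a peak also on *Wdr34*), *Flna* (filamin A, 57.3%) and *Macf1* (48.7%). The exception was *Lcp1*, the plastin of white blood cells. All 30 further focal adhesion genes had a peak, but their median covered share was 30.3%, and *Tns4* (92.3%), *Fermt1* (kindlin 1, 90.8%), *Git2* (75.3%) and *Crk* (72.3%) led them. Of the SRF control genes, *Srf* itself was covered over 55.3%, and its co-activator genes *Mrtfb* and *Mrtfa* over 30.3 and 11.9%, a peak of *Mrtfa* lying also on *Sgsm3*.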

How the data were processed

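Single-end reads of 75 nt came from chromatin of KCs fixed with 1% formaldehyde (10 min per the labels, 5 min per the study's methods) and amplified for 15 cycles. The authors used Cutadapt 1.9.1 and Trimmomatic 0.35 for trimming, Bowtie2 2.2.6 for alignment on GRCm38, MACS 2.1.1 for peak calling (P cut-off 0.01) and ChIPseeker (version not given in the sources) for annotation. Whether the input was the control of the peak calling is not stated. In the deposited table, fold enrichment is a ratio to the caller's background, and the authors' P-value and q-value of each peak are on the −log10 scale. Peaks were called on 1 library; without counts or depth, no precision could be given.

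Peaks were set on GENCODE vM21 genes with Python 3.11.15, NumPy 2.4.6 and pandas 2.3.3; figures used matplotlib 3.10.9. Covered share is the percent of a gene body inside peaks. Exons were pooled over protein-coding transcripts; intron 1 came from the longest spliced one. On simulated data with a single peak set at the start or end of each gene, the set share and side were recovered for 100% of 13929 genes. This checks the arithmetic only, as several peaks per gene, overlapping neighbours and peaks past the TES were not simulated. Named genes are the 9 genes, their paralogs, overlapping or annotated neighbours and, per role, at most 4 genes with the largest shares and at most 4 of the longest that lacked a peak; a few of them are not reported here. The genes and lists were chosen with earlier results of these data known. Alternatives were stricter peaks, merged peaks, other gene spans, overlaps and assignments, and peak midpoints.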

Additional observations from a re-analysis of the deposited data

How the results depend on the processing

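Of 67 comparisons of a reported value with an alternative, 61 changed it by less than 1.5 times. Within that limit, the genes covered over at least 50% fell from 7 to 5 with peaks of a −log10 P of at least 5. With a fold enrichment of at least 3 they fell to 6. The covered share of *Ezr* was 48.8% at the first of these settings, and that of *Actn4* 47.3% at the second. With a 10% overlap, 9 paralogs in place of 13 had a peak, and no share of all protein-coding genes is given at that overlap. Counted by peak midpoints, 4 of the 9 genes leaned downstream in place of 9. With peaks of a −log10 P of at least 5 alone, all 9 genes kept a peak, and 24.6% of all protein-coding genes had one. At this setting 8 of 29 paralogs in place of 13 had a peak, and 69 of 116 genes of the wider list in place of 109. The covered share fell to 1.84% in *Actn1*, 37.8% in *Actn4* and 31.6% in *Vcl*, since fewer peaks enter. No alternative with a fold enrichment of at least 3, gaps of up to 1000 bp closed, the longest transcript, a 10% overlap or the annotated gene changed a count by more than 1.5 times. No paired analysis was possible because there was 1 ChIP library. Depth is unknown, so a gene without a peak is one with no region past the threshold of the list, and faint marking below it was not measured. Peaks were intervals without summits, so a gap between peaks does not show where the signal was lowest.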
